A study of Mus musculus with 6 samples.

Results

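Insl3 and Jak3 are the members described here, 2 of the 10580 genes listed by the authors, taken by their exact names. They are neighbours in an unusual sense, since Insl3 lies wholly inside the annotated span of Jak3 on the same strand of mouse chromosome 8. The study compared fetal Leydig cells (FLCs) at embryonic day (E) 18.5 with adult Leydig cells (ALCs) at postnatal day (P) 100, with 3 libraries per stage and 6 in all. Cells of both stages carried the Nr5a1-GFP transgene, in male embryos of CD-1 mothers and heterozygous fathers for FLCs and in heterozygous adult males for ALCs. Those with a strong GFP signal were sorted from dissociated testes, and the FLCs were pooled over several sorts. The transgene is driven by Nr5a1 sequences, and Nr5a1 is also active in Sertoli cells, so the strength of the GFP signal was what set the Leydig cell gate. The value used for each gene is its pooled mean, the authors' mean over all 6 libraries of counts scaled to a common library size (normalised counts). The pooled means used here carry no value per library or per stage, so no spread, no error and no test can be given, the order of any pair of close levels cannot be judged against replicate error, and a difference between FLCs and ALCs was not analysed here. The depth of each library is unknown here.

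Insl3 encodes insulin-like peptide 3, a small hormone of the relaxin and insulin family that Leydig cells secrete. In the fetus it acts through its receptor, RXFP2, on the gubernaculum, the ligament that guides the testis in its descent, and in adult males it circulates as a marker of Leydig cell number and maturity. Jak3 encodes a Janus kinase, a tyrosine kinase bound to the inner side of cytokine receptors. Unlike the other members of its family, JAK3 works with a single receptor subunit, the common gamma chain encoded by Il2rg, and it is known for its role in the development and signalling of lymphocytes. On activation JAK kinases phosphorylate STAT factors, which then enter the nucleus, and proteins such as the SOCS family restrain the signal.

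In the GENCODE vM21 annotation of the GRCm38 build, Jak3 (ENSMUSG00000031805.17) spans chr8:71676296-71690575 on the plus strand, 14280 bases, with 5 annotated transcripts. Insl3 (ENSMUSG00000079019.2) spans chr8:71689214-71690575 on the same strand, 1362 bases, with 1 transcript of 2 exons. It starts 12918 bases after the Jak3 start and both genes end at the same base. The first exon of Insl3, chr8:71689214-71689432, holds 219 bases, of which 175 are coding, and lies in the last intron of the Jak3 transcript Jak3-201. The second exon of Insl3, chr8:71690172-71690575, holds 404 bases and is also the last of the 25 exons of Jak3-201. In Insl3 this exon holds 191 coding bases followed by the stop codon and the 3′ UTR. In Jak3-201 the whole exon is 3′ UTR, because the Jak3 reading frame ends in the exon before it. The genes share exon but no coding sequence, and 52.2% of the 366 coding bases of Insl3 are 3′ UTR of Jak3-201.

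**Figure D1:**
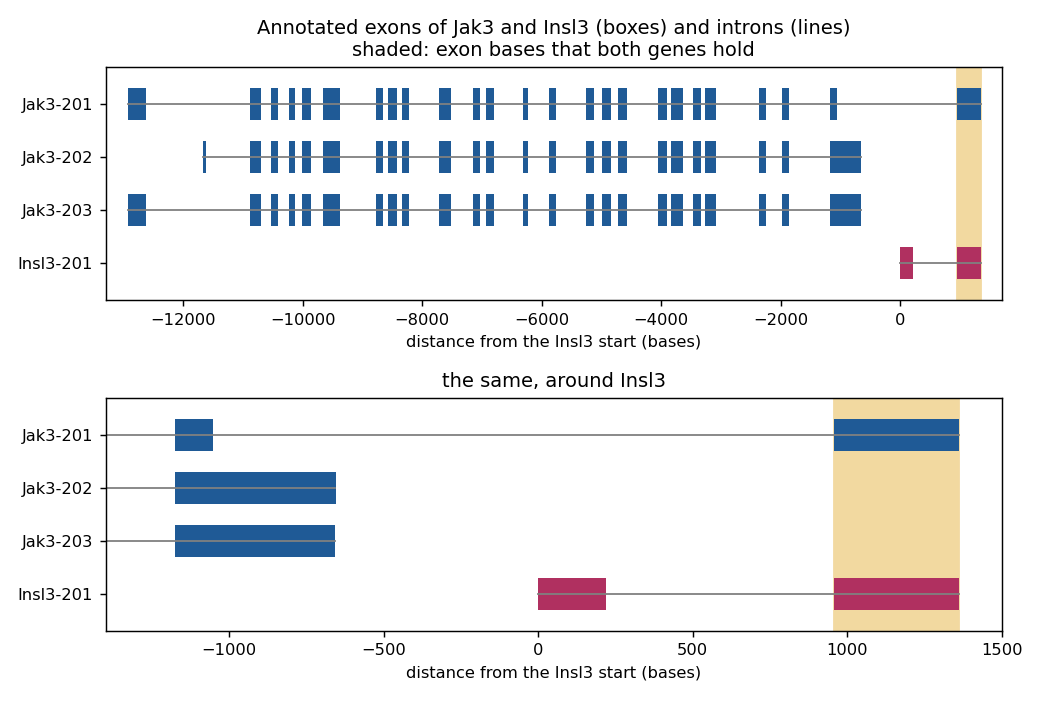
Annotated exons (boxes) and introns (lines) of 3 Jak3 transcripts and of Insl3 against distance from the Insl3 start in bases, for the whole of Jak3 above and around Insl3 below. The shaded stretch of 404 bases is exon in Insl3-201 and Jak3-201 alike, whereas Jak3-202 and Jak3-203 stop before Insl3 begins.

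The splice junctions show where the transcripts part. The sequences below run 15 bases before and 15 bases after the junction, 5′ to 3′ on the plus strand, read from the GENCODE vM21 transcripts, with the shared exon in capitals.
Insl3 exon 1 to exon 2: tggagacccgggaccGGGAGCTGCTGCAGT
Jak3-201 exon 24 to exon 25: cagccaggggcgagaGGGAGCTGCTGCAGT
The lower-case bases of Insl3 end at chr8:71689432 and are coding, and those of Jak3 end at chr8:71688162 and directly follow the Jak3 stop codon. The capitals start at chr8:71690172 in both. All 404 bases of the shared exon are the same in the 2 transcripts.

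The coding bases that belong to Insl3 only are those of its first exon, chr8:71689258-71689432, 175 bases that begin with the start codon, in capitals here. They are shown because a read that lies in them cannot come from an annotated Jak3 exon.
Insl3 exon 1, coding part: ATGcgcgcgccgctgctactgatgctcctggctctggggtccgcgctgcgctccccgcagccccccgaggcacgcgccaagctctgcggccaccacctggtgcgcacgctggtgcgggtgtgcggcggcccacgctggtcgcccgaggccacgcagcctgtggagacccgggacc

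The shared exon makes up 64.8% of the exon bases of Insl3 and 7.55% of the 5352 exon bases of Jak3. The reads were paired and 50 bases long, so the annotated transcripts were cut into all windows of that length. A window stands for a read without its mate. Of the 574 windows in the Insl3 transcript, 355 (61.8%) also occur letter for letter in a Jak3 transcript, and 170 lie in the first exon and 49 cross the junction. In Jak3-201, 355 of 3970 windows (8.94%) also occur in Insl3. Jak3-204, a transcript annotated as a retained intron, shares 4 of its 4000 windows, and Jak3-202, Jak3-203 and Jak3-205 share none. No window of Insl3 occurs in an annotated transcript of any gene other than Jak3. Because both genes lie on the plus strand, strand does not separate their reads. How the authors' counting program treated a read on exon bases of more than 1 gene is not given in the sources used here.

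The pooled mean of Insl3 was 258458 normalised counts, the 4th highest of the 10580 listed genes and 381 times their median of 679. The pooled mean of Jak3 was 229173 normalised counts, the 6th highest and 338 times the median. The Jak3 value was 0.887 of the Insl3 value. Insl3 made up 1.16% and Jak3 1.03% of the summed pooled means of the listed genes, 2.19% together. Only 16 listed genes had a pooled mean of at least 100000 normalised counts, and both genes were among them. The share of the Jak3 value that came from reads on the exon it shares with Insl3 was not tested. A read that lies within that exon cannot be assigned to either gene by its own sequence. The reads were paired, and where their mates lay was not analysed here.

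**Figure D2:**
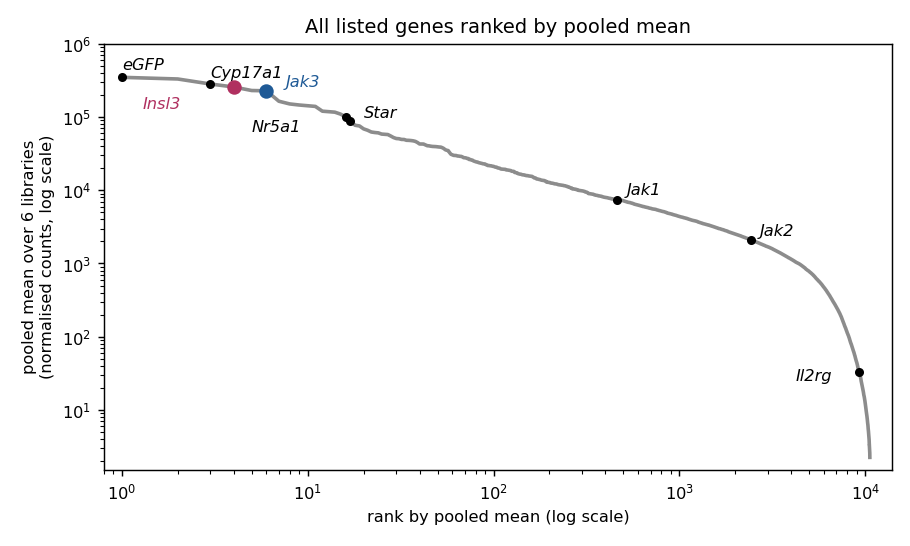
Pooled mean over the 6 libraries in normalised counts (log axis) against rank (log axis) for all 10580 listed genes, with chosen genes marked as points. Insl3 at rank 4 and Jak3 at rank 6 stand among the steroidogenic genes, far above Jak1 at rank 463, Jak2 at rank 2442 and Il2rg at rank 9247. The Jak3 value may include reads on the exon shared with Insl3, and their share was not tested.

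Several of the genes next to the pair in this order encode enzymes of steroid synthesis. Above Insl3 stood the eGFP transgene itself with 350200 normalised counts, Aldh1a1 with 332373, which encodes a retinaldehyde dehydrogenase, and Cyp17a1 with 283675, an enzyme of androgen synthesis. Between Insl3 and Jak3 stood Cyp11a1 with 231185, the enzyme that makes pregnenolone from cholesterol. Below Jak3 came Hsd3b1 with 165076, a steroid dehydrogenase of the same pathway, Agt with 151631, which encodes angiotensinogen, and Nr6a1 with 146545, an orphan nuclear receptor. The gap from Jak3 down to Hsd3b1 was wider than the gap from Cyp11a1 to Jak3. Whether these neighbours differ beyond their spread cannot be said from pooled means.

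A pooled count grows with the length of a gene, so levels of different genes are set side by side per kilobase of exon, using the union of all annotated exons. On this scale Insl3, with 623 exon bases, had 414861 normalised counts per kilobase. In the mean over both stages it was the highest of the 10523 listed genes that had a length. The eGFP transgene, the highest by pooled mean, had no annotated length and is not in this ranking, so its place per kilobase is unknown. Every listed gene had an adjusted p below 0.05 between the stages in the authors' comparison, so this order belongs to the mean over both stages. The order and folds within FLCs or within ALCs may differ from it. By the study's own length-scaled values, Insl3 was the highest gene in ALCs, but in FLCs it stood below the mitochondrial gene mt-Co1 and Hsd3b1. The next highest was Cyp17a1 with 102447 per kilobase, and the Insl3 level per kilobase was 4.05 times as high in the mean over both stages. Jak3 had 42820 normalised counts per kilobase and ranked 9th, between Cyp11a1 with 48124 per kilobase and Ephx1, an epoxide hydrolase, with 39732. The Insl3 level per kilobase was 9.69 times that of Jak3. On the exon bases that Jak3 does not share with Insl3, 4948 in all, its whole pooled mean comes to 46316 per kilobase. On the 404 shared bases alone it comes to 567261 per kilobase, and the pooled mean of Insl3 on those bases comes to 639748 per kilobase. These last values are what the pooled means would be if all reads lay on the named bases, and the position of the reads within the genes was not analysed here.

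The other Janus kinases were much lower. Jak1, which many cytokine receptors use, had a pooled mean of 7425 normalised counts and 1027 per kilobase. Jak2, which serves growth hormone, prolactin and several haematopoietic receptors, had 2096 normalised counts and 417 per kilobase. The Jak3 level per kilobase was 41.7 times that of Jak1 and 103 times that of Jak2. The Jak3 value may include reads on the exon it shares with Insl3, and their share was not tested. These folds are therefore not a measure of Jak3 transcripts alone. Tyk2, the remaining member of the family, was not among the listed genes, so it has no value here. The table lists only genes with an adjusted p below 0.05 in the authors' comparison, so a gene without a value may be high or low. The share of all tested genes that was listed is not given here. Counts of listed genes in any group therefore say only which genes have a value.

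The listed partners of JAK3 in lymphocytes all lay below the all-gene median per kilobase. Of 8 receptor genes of the common gamma chain group, 5 were listed, with pooled means from 9.15 to 252 normalised counts. Il2rg, the shared subunit, had 33.3 normalised counts and 13.9 per kilobase. The Jak3 level per kilobase was 3071 times as high as that of Il2rg, again with any reads on the exon shared with Insl3 included. Il15ra, a subunit of the interleukin-15 receptor, had the highest pooled mean of the group, 252, followed by Il2rb with 132, while Il21r had 21.2 and Il7r 9.15. None of the 5 lay above 147 normalised counts per kilobase, the median of all genes with a length. Of the 6 cytokines that use these receptors, 2 were listed, Il7 with a pooled mean of 85.2 and Il15 with 62.6, and neither reached that median per kilobase.

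STAT factors, the substrates of the JAK kinases, were listed for 6 of 7 genes, and 4 of the 6 lay above the all-gene median per kilobase. Stat3, which the interleukin-6 family of cytokines activates, had a pooled mean of 4362 normalised counts and 458 per kilobase. Stat2, a factor of the interferon response, had 4182 normalised counts, and Stat6, which interleukin-4 activates, had 2437. Of 9 inhibitors and feedback genes, 5 were listed and 3 lay above the per-kilobase median. Socs3, a feedback inhibitor of cytokine signalling, had the highest pooled mean with 8382 normalised counts, and Sh2b3, an adaptor that restrains JAK2, had 1703. Socs2 had 586 and Socs1, a direct inhibitor of JAK kinases, had 495.

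Markers of lymphocytes and other leukocytes were read as well, and which cells the Jak3 reads came from was not tested. Of 14 lymphocyte genes, 9 were listed, with pooled means from 6.60 to 105 normalised counts and a sum of 224. Genes that were not listed have no value here and may be high or low. The number listed was not set against the share over all tested genes and is no result about lymphocyte genes. The B cell genes Cd79a and Ms4a1 and the T cell kinases Lck and Zap70 were not listed. The median of the 9 was 14.1, and the T cell receptor components Cd3d, Cd3e and Cd3g had 11.7, 15.3 and 19.7. Cd4 was the highest with 105, a gene that macrophages of some tissues also express. All 7 macrophage and leukocyte genes were listed, with a sum of 2323 normalised counts, and 3 of the 7 lay above the per-kilobase median, against 0 of the 9 lymphocyte genes. Csf1r, the receptor of macrophage colony-stimulating factor, had the highest of these with 982, followed by Cd14 with 649 and Cd68 with 275. Ptprc, which encodes the pan-leukocyte antigen CD45, had 139. The summed pooled means of the 9 lymphocyte genes were 0.00101% of the total over all listed genes, and those of the 7 macrophage and leukocyte genes 0.0104%.

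The Leydig cell label was checked in the same way. Of 7 Leydig cell markers other than Insl3, 6 were listed, and all 6 lay above the per-kilobase median, from 21275 to 102447 per kilobase. The 4 highest by pooled mean were Cyp17a1, Cyp11a1 and Hsd3b1, given above, and Nr5a1 with 101116. Star, which carries cholesterol into mitochondria, had 87502 and Fabp3, a fatty acid binding protein, 27742. Lhcgr, the luteinizing hormone receptor, was not listed. Of 3 Sertoli cell genes 2 were listed, Amh with 137 normalised counts and Dhh with 89.0, and Tcf21, an interstitial progenitor gene, had 216. Of 3 germ cell genes only Ddx4 was listed, with 184, of 3 endothelial genes only Esam, with 102, and none of 3 peritubular myoid genes was listed. Part of these marker genes are those the study itself used for these samples, so they are not independent evidence of purity. Nr5a1 is not independent of the sort either, since its sequences drive the GFP transgene whose signal set the gate.

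**Figure D3:**
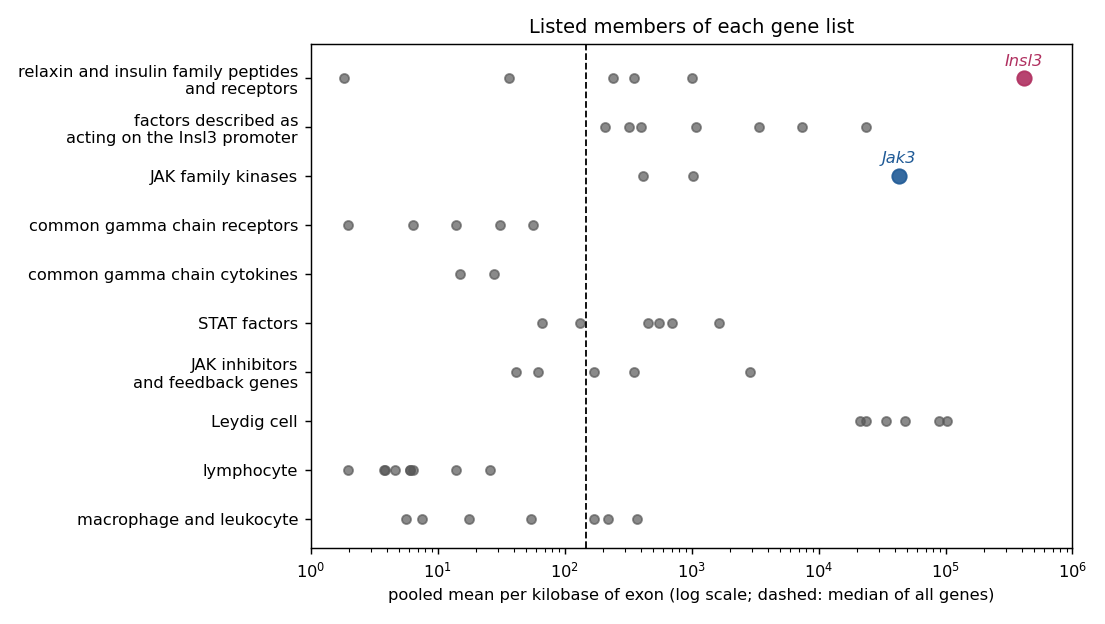
Pooled mean per kilobase of exon (log axis) of every listed gene in 10 gene lists, 1 point per gene, with the median of all genes, 147, as a dashed line. Insl3 (414861) and Jak3 (42820) stand in the range of the Leydig cell markers or above it, while all 5 listed common gamma chain receptor genes and all 9 listed lymphocyte genes lie left of the dashed line. How much of the Jak3 level comes from reads on the exon shared with Insl3 was not tested.

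Within its own family Insl3 stood apart as well. Of 16 peptides and receptors of the relaxin and insulin family, 6 were listed. Igf2, a fetal growth factor, had a pooled mean of 5781 normalised counts, and Igf2r, the receptor that clears it, had 3256. Igf1 had 362 and Insl6, an insulin-like peptide known from the testis, had 169. Rln1, which encodes relaxin, had 6.35. Per kilobase the other 5 ran from 1.82 to 1010 normalised counts, against 414861 for Insl3. The relaxin family receptor genes Rxfp1, Rxfp2, Rxfp3 and Rxfp4 were not listed, and neither were Insl5, Rln3, Ins1, Ins2, Insr and Igf1r.

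Factors described as acting on the Insl3 promoter were listed for 7 of 9 genes, and all 7 lay above the per-kilobase median. Nr5a1, the nuclear receptor that drives steroidogenic genes and whose sequences drive the transgene, had 101116 normalised counts and ranked 16th by pooled mean. Jun, a component of AP-1, had 23534, Gata4, a zinc finger factor of the gonad, had 13371 and Esr1, the oestrogen receptor, had 5498. Klf6, a zinc finger factor, had 4748 and Nr0b1, a corepressor of Nr5a1, had 582. Nr4a1 and Nr2f2 were not listed.

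The promoters of the members differ in the letters they hold. RefSeq windows on GRCm38.p6, 250 bases before to 50 after the start, were searched on both strands for 7 short motifs chosen after the windows had been read. The stretch of each window before the GENCODE start is shown here, 5′ to 3′ on the plus strand. Capitals mark CAAGGTC, letters found in sites for a nuclear receptor of the Nr5a1 kind, and AAAGGTC, letters found in those of the Nr4a1 kind. The AAAGGTC match stands here on the minus strand and so reads GACCTTT.
Insl3, chr8:71689002-71689213: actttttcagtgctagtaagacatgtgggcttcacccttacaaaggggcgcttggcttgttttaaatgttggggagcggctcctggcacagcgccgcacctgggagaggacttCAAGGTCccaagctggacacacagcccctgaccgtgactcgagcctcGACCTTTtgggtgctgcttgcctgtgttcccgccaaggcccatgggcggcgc
Jak3, chr8:71676133-71676295: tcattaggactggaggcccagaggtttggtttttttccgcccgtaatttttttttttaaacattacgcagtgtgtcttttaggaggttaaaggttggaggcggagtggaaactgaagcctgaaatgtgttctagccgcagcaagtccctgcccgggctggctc
The Insl3 stretch lies in the last intron of Jak3-201. It held CAAGGTC once, at chr8:71689115-71689121, and AAAGGTC once, at chr8:71689162-71689168, 40 bases further on. Of 32851 RefSeq promoter windows, 3.96% held CAAGGTC and 3.77% held AAAGGTC. The Jak3 window held neither. TATAA stood in the Insl3 window at chr8:71689222-71689226, 30 bases before the RefSeq start and 8 bases after the GENCODE start, since the annotations place the start 38 bases apart. The same letters on the minus strand overlap it by all but 1 base, and 24.9% of all windows held TATAA. The Jak3 window held no TATAA. The letters GGGCGG were found once in the window of each member and in 35.7% of all windows. The letters CACCC were found 2 times in the Insl3 window, 3 times in the Jak3 window and in 57.5% of all windows. Neither member held AGGTCA, which 16.3% of all windows held. Neither of the matches in capitals is thus followed by the A that would complete AGGTCA. Neither of them held the letters GATAA, found in 25.4% of all windows. These matches describe letters and say nothing of binding.

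The listed genes around the pair had far lower pooled means. Of the 20 nearest protein-coding genes, 10 on each side, 11 were listed, with pooled means from 76.7 to 10749 normalised counts and a median of 764. The highest was Bst2, an interferon-induced membrane protein, which lies 138840 bases before Jak3, and the Insl3 pooled mean was 24.05 times and the Jak3 pooled mean 21.32 times as high. Unc13a, a presynaptic protein gene and the nearest on the upstream side at 4539 bases, had 1163. B3gnt3, a glycosyltransferase gene on the other strand whose 3′ end lies 181 bases beyond the shared end, was not listed. Fcho1, a gene of endocytosis next to it, had 1234. The other listed neighbours were Pgls with 1723, Mvb12a with 1113, Zfp961 with 764, Zfp709 with 185, Zfp882 with 121, Tmem221 with 120, Fam129c with 110 and Nxnl1 with 76.7.

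Pairs of listed genes that share exon bases on 1 strand, as Insl3 and Jak3 do, often had close pooled means. There were 283 such pairs, made of 297 genes, and in 134 of the other 282 (47.5%) the ratio of pooled means was nearer to 1 than the 0.887 of Jak3 to Insl3. The median difference in these 282 pairs was 1.18-fold. Among 10264 pairs of listed genes that follow each other on a strand without overlap, the median difference was 5.66-fold and 3.95% were nearer to 1. Many sharing pairs come from gene clusters with common last exons, 36 from the 9 genes of the Ugt1a cluster and 91 from the Pcdhg cluster, so the pairs are not independent. Within the Ugt1a cluster the pooled means ran from 10407 normalised counts for Ugt1a5 to 12903 for Ugt1a7c. Those of Ugt1a10, Ugt1a2, Ugt1a8, Ugt1a1 and Ugt1a9 ran only from 10408 to 10429, while Ugt1a6b had 11626 and Ugt1a6a 12239. How reads on such shared exons were counted was not tested. Among the 89 pairs in which neither gene shares exon bases with another listed gene, Insl3 and Jak3 included, 9 of the other 88 (10.2%) were nearer to 1 and the median difference was 2.56-fold. Where the shared exons also made up at least 50% of the shorter gene, which left 33 pairs with Insl3 and Jak3 among them, 7 of the other 32 (21.9%) were nearer to 1, with a median difference of 1.81-fold. Insl3 and Jak3 were the only one of the 283 pairs in which both genes had at least 100000 normalised counts. Pairs share genes and libraries, and these counts are a description with no test.

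**Figure D4:**
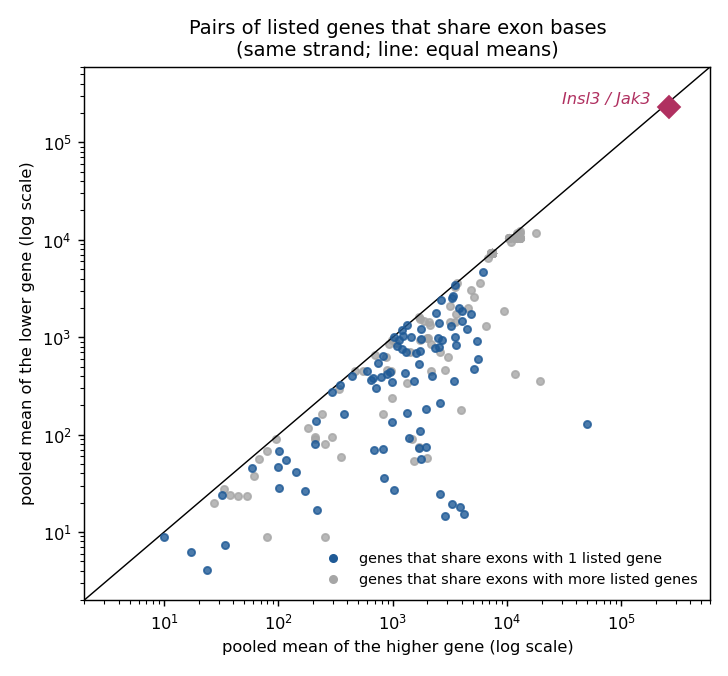
Pooled mean of the lower gene against that of the higher gene, both on log axes in normalised counts, for the 283 pairs of listed genes that share exon bases on the same strand. The diamond is Insl3 (258458) with Jak3 (229173), blue points are pairs whose genes share exons with no other listed gene, grey points are the rest, and points on the line have equal means.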

How the data were processed

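RNA of FLCs (E18.5) and ALCs (P100), 3 libraries per stage, was sequenced by the authors as stranded total RNA depleted of ribosomal RNA, in paired reads of 50 bases. A passage of the study's own text names poly(A)+ RNA instead. Per the labels, CASAVA 1.8.2 was used, and the methods name GemTools for mapping to GRCm38 and an in-house program for counting, with genes under 10 reads dropped. The authors fitted DESeq2 and deposited 1 table of the comparison. Its mean column is a signal per gene in normalised counts, which the authors scaled by library size factors and averaged across the 6 libraries. The other 5 columns of the deposited table hold the authors' fold change, its standard error, the test statistic and p-values. None of their values was used, except to check which genes were listed: all 10580 had an adjusted p below 0.05 there, so ranks hold among listed genes only.

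The members and gene lists were chosen with earlier results of these data known. Gene names were matched to GENCODE vM21 by symbol (10223) or by a RefSeq synonym (300), and 57 were not matched. Genes named were both members, the 3 genes above and below each by pooled mean, the highest members of each list and the nearest coding genes. Further list members were named after their values were seen. Length was the union of exons. Interval functions were tested on simulated data. Python 3.11.15, numpy 2.4.6 and matplotlib 3.10.9 were used. Protein sequences were not used here, and a few members of the gene lists are not reported here.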

Additional observations from a re-analysis of the deposited data

How the results depend on the processing

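No paired analysis was possible because the values used are means over all 6 libraries, and leaving out a library was not possible for the same reason. A value was taken to have moved when its rank or its first 3 significant digits changed, and a count of pairs when it changed by more than 1.5 times; of 19 alternative values, 13 moved and 6 did not. Without the eGFP transgene, Insl3 ranked 3 and Jak3 ranked 5 by pooled mean, and their shares of the summed means were 1.18% and 1.05%. With Jak3 left out, the Insl3 share was 1.17%, and with Insl3 left out, Jak3 ranked 5 with a share of 1.04%. With the longest transcript as the length, Jak3 ranked 10 per kilobase and the ratio of Jak3 to Insl3 per kilobase was 0.136 in place of 0.103. With the coding length, Jak3 ranked 20 and the ratio was 0.0983, while Insl3 ranked 1 with each of the 3 lengths. The 134 of 282 overlapping pairs (47.5%) with a ratio nearer to 1 became 136 of 327 (41.6%) with overlap of gene spans, 40 of 99 (40.4%) where exons of 1 gene were covered to at least 50%, and 9 of 88 (10.2%) among genes that overlap no other, an alternative chosen after seeing the data. Leaving out a gene must raise the ranks of the genes below it and the shares of those left, and cannot change the ranks above it. A lower limit on the pooled mean cannot change the rank of a gene above that limit. Such outcomes were fixed in advance, so the numbers that moved or did not are no measure of robustness. The cause of the other changes was not tested, apart from the smaller sets of genes or pairs that the alternatives leave.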
